A study of Arabidopsis thaliana with 12 samples.

Results

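AT1G53430 and AT1G07650 are Arabidopsis genes for leucine-rich repeat receptor kinases, and their transcripts were followed here across 6 groups of seedlings. Both were chosen by their lower values in the rcf1-1 mutant than in wild type on these arrays, so the genotype differences below describe that choice and carry no test. The array annotation gave each gene 1 probe set that maps to exactly 1 gene. They are 2 of the 13286 genes that the annotation and gene table pair with such a probe set. In the wild-type seedlings both transcripts stood highest after 12 h in the cold. In the chilled mutant AT1G53430 overlapped its unchilled level at 12 h and lay below it at 24 h, and AT1G07650 lay below it at both times.

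Receptor kinases of this kind span the plasma membrane. An extracellular domain with leucine-rich repeats meets a ligand or a partner protein, and an intracellular kinase domain passes the signal on by phosphorylation. Both genes belong to subfamily LRR-VIII-2, whose full-length members also carry a malectin-like domain outside the cell, and members of the wider family are known for sensing microbes, parasites, hormones and the state of the cell wall. The subfamily is background knowledge, since the array annotation gives both genes by locus number alone.

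The measurements are Affymetrix ATH1 arrays, which hold short probes for each transcript, hybridised with RNA from seedlings 14 days old. Wild-type plants were of the gl1 line of Columbia and carried the transgene CBF2::LUC, a luciferase reporter, and the mutant was rcf1-1. The labels name the transgene for the wild type only. RCF1 is known as a DEAD-box RNA helicase that acts in pre-mRNA splicing and in the regulation of CBF genes, the transcription factor genes at the head of the cold response. Seedlings grew at 21 °C on medium with sucrose under long days, and those at 12 h and 24 h had been moved to 4 °C for that time. The 0 h groups were not chilled. Each genotype and time had 2 arrays, which the labels call biological replicates, and rcf1-1 is represented by a single mutant line. All 3 measured leaf markers read above the array median on every array, as did 4 to 6 of the 6 measured root markers on both arrays of each group, so leaf and root RNA was present throughout. In such bulk RNA, fewer cells of a type and less transcript per cell cannot be told apart.

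Replicate 2 at 24 h stood apart in both genotypes. On these arrays the control probe sets for the 5′ and 3′ ends of actin differed by -6.15 and -5.89 (log2), against -2.03 to -1.49 on the other 10 arrays. The GAPDH control differed by -5.13 and -4.45, against -1.06 to -0.29. The main differences at 24 h are therefore also given without both of these arrays. That leaves 1 array per genotype at 24 h, which is assumed to vary like the arrays of the other groups, so an SE or adjusted p given for that setting holds no replicate spread from 24 h. Values are log2 RMA values, on which a difference of 1 means a doubling, and the medians of the 12 arrays lay between 4.03 and 4.21. Signals near background compress differences, so the differences from the groups that read below these medians may understate the change in transcript.

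AT1G53430, identified by probe set 260975_at, read 4.36 and 4.13 on the wild-type arrays at 0 h. After 12 h at 4 °C it read 6.79 and 7.02, and after 24 h 5.66 and 4.64, in replicate order. Both wild-type arrays at 12 h were far above every other array, and the 24 h arrays lay between those at 12 h and those at 0 h. Ranked among all probe sets of its array, the transcript moved from percentiles of 52.4 and 49.7 at 0 h to 81.5 and 83.7 at 12 h. In rcf1-1 the values were 3.94 and 3.9 at 0 h, 4.11 and 3.76 at 12 h, and 3.66 and 3.34 at 24 h. All 6 mutant arrays thus read below the lowest wild-type array, though the highest of them, at 4.11, was close to the 4.13 of unchilled wild type. The lowest mutant array, replicate 2 at 24 h, was at percentile 35.4.

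AT1G07650, identified by probe set 261434_at, read 4.61 and 4.32 in wild type at 0 h. Its values there were 5.88 and 5.66 at 12 h, then 5.45 and 5.09 at 24 h. The 4 chilled wild-type arrays were above both unchilled ones. In rcf1-1 it read 4.26 and 4.41 at 0 h, where the genotypes overlapped. Its values in the chilled mutant were 3.22 and 3.46 at 12 h and 2.65 and 3.47 at 24 h. The 4 chilled mutant arrays were below all 8 other arrays. Replicate 1 at 24 h gave the lowest value, at percentile 18.7 of its array, while the arrays of the unchilled mutant were at 50.6 and 52.6.

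**Figure D1:**
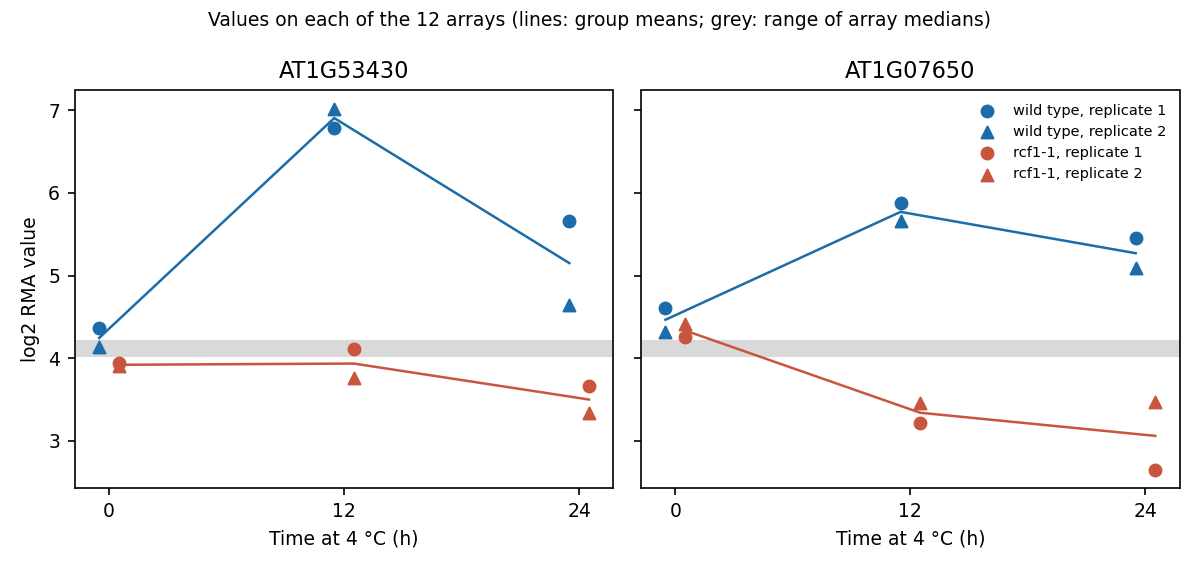
log2 RMA values (vertical axis) of AT1G53430 and AT1G07650 on each of the 12 arrays against time at 4 °C (horizontal axis, h), with wild type in blue and rcf1-1 in red, circles for replicate 1 and triangles for replicate 2. Lines join group means and the grey band spans the array medians of 4.03 to 4.21. Wild type is highest at 12 h for both genes, while in rcf1-1 AT1G53430 is within or under the band and AT1G07650 lies under it at 12 h and 24 h.

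The groups were ordered alike for both genes at the top. For AT1G53430 the wild-type means ran from 6.9 ± 0.16 (SD, n = 2) at 12 h through 5.15 ± 0.72 at 24 h to 4.25 ± 0.17 at 0 h. Then came rcf1-1 at 12 h with 3.93 ± 0.25, at 0 h with 3.92 ± 0.03 and at 24 h with 3.5 ± 0.22. Only the neighbours rcf1-1 at 12 h and rcf1-1 at 0 h overlapped in this order. AT1G07650 ran from wild type at 12 h, with 5.77 ± 0.16, through 24 h with 5.27 ± 0.25 to 0 h with 4.47 ± 0.21. The mutant means followed as 4.34 ± 0.11 at 0 h, 3.34 ± 0.18 at 12 h and 3.06 ± 0.58 at 24 h. Here the arrays of both genotypes at 0 h overlapped, and so did those of the mutant at 12 h and 24 h. The mutant therefore held different places in the order for the 2 genes, with its unchilled seedlings above its chilled ones for AT1G07650 alone.

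The genotype differences that chose the genes were small before the cold. At 0 h, rcf1-1 minus wild type was -0.33 ± 0.32 (limma's SE on the log2 scale, n = 2 arrays per group) for AT1G53430 and -0.13 ± 0.29 for AT1G07650. At 12 h the difference of AT1G53430 was -2.97 ± 0.32, a 7.84-fold lower value, and that of AT1G07650 was -2.43 ± 0.29, or 5.39-fold. Ordered from the most negative difference, these were places 2 and 5 of 22746 probe sets, against places 2299 and 6673 at 0 h. By 24 h the genes had changed order. AT1G53430 differed by -1.65 ± 0.32, or 3.14-fold, at place 156, and AT1G07650 by -2.21 ± 0.29, or 4.62-fold, at place 25. Without both 24 h replicate 2 arrays the 24 h differences, each now between 1 array and 1 array, were -2 for AT1G53430 and -2.79 for AT1G07650. Leaving out wild-type replicate 1 at 24 h alone brought AT1G53430 to -1.14, and leaving out wild-type replicate 2 took it to -2.16. Stomatal markers, of which 4 of 10 listed were measured, leaned the same way. In rcf1-1 4 of 4 were lower at 0 h (-0.67 to -0.03), 3 of 4 at 12 h (-0.73 to 0.08) and 4 of 4 at 24 h (-1.13 to -0.15). None of the stomatal markers was called by limma in the main fit, and 1 at each time had an unadjusted p under 0.05. The markers were tested in that fit only, so the lack of a call does not show equal levels. Of the leaf markers 3 of 3, 3 of 3 and 2 of 3 were lower at these times, and of the root markers 4 of 6, 3 of 6 and 4 of 6, none of them called. The medians over all probe sets were -0.02, -0.01 and 0. The part of these markers in the genotype differences was not tested.

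Within wild type, AT1G53430 stood 2.66 ± 0.32 higher at 12 h than at 0 h (6.31-fold) and 1.75 lower at 24 h than at 12 h (a difference of -1.75 ± 0.32). At 24 h it was 0.9 ± 0.32 above 0 h, and this value rests on unlike arrays, since it was 1.41 without wild-type replicate 2 and 0.39 without wild-type replicate 1. The wild-type difference of AT1G07650 was smaller at 12 h, at 1.3 ± 0.29 (2.47-fold), and more of it was left at 24 h, at 0.8 ± 0.29. In rcf1-1 the genes parted. AT1G53430 was at 0.02 ± 0.32 at 12 h and -0.42 ± 0.32 at 24 h relative to 0 h. AT1G07650 was at -1 ± 0.29 at 12 h and -1.28 ± 0.29 at 24 h, and the latter was -1.68 without rcf1-1 replicate 2 and -0.87 without rcf1-1 replicate 1 at 24 h. The mutant's cold response minus that of wild type was -2.64 ± 0.45 for AT1G53430 at 12 h, nearly all of it the wild-type difference. For AT1G07650 the corresponding -2.3 ± 0.4 joined a higher value in wild type and a lower one in the mutant. At 24 h the same quantity was -1.32 ± 0.45 for AT1G53430 and -2.08 ± 0.4 for AT1G07650, and without both 24 h replicate 2 arrays it was -1.67 and -2.66.

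**Figure D2:**
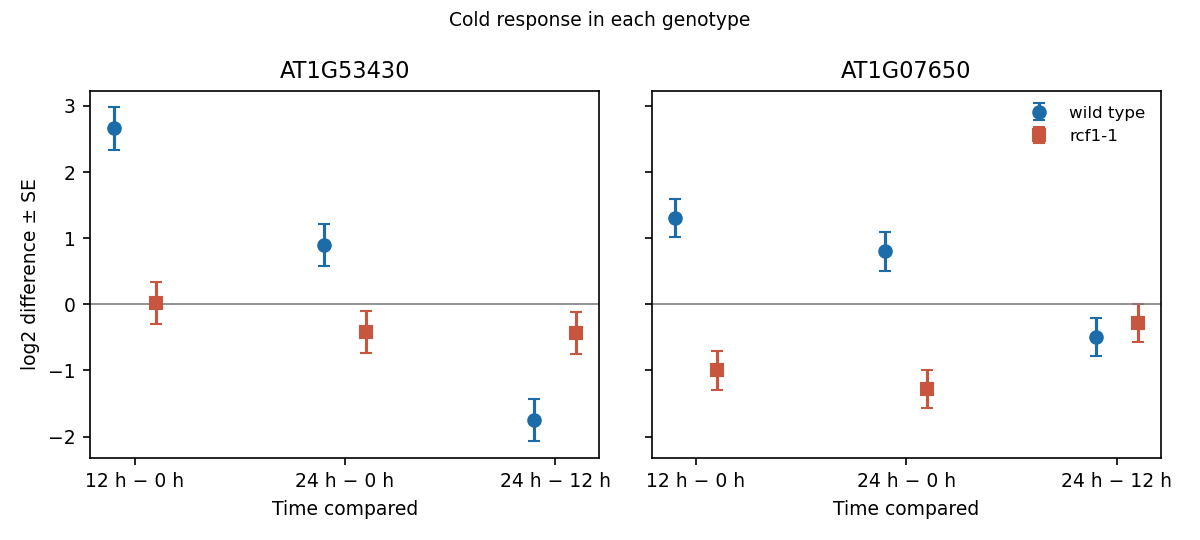
log2 difference between times within each genotype (vertical axis, ± limma's SE, n = 2 arrays per time) for the 3 pairs of times (horizontal axis), with wild type as blue circles and rcf1-1 as red squares. At 12 h minus 0 h AT1G53430 is at 2.66 in wild type and 0.02 in rcf1-1, while AT1G07650 is at 1.3 and -1.

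The cold response averaged over both genotypes does not use the genotype difference, though it comes from the same arrays. It was tested for both genes with limma, with p-values adjusted by Benjamini-Hochberg over all 22746 probe sets and called under 0.05. The test called AT1G53430 higher at 12 h than at 0 h, by 1.34 ± 0.22 (limma, adjusted p = 0.00133), where 9.04% of all probe sets were called higher. It then fell between 12 h and 24 h, by 1.09 ± 0.22 (limma, adjusted p = 0.0121), where 5.68% of probe sets were called lower. That second call was lost without wild-type replicate 2 at 12 h (adjusted p = 0.061), without rcf1-1 replicate 1 at 12 h (0.0676) and with the compared arrays alone (0.0571). At 24 h against 0 h its mean response was 0.24 ± 0.22 (adjusted p = 0.427), which became 0.58 (adjusted p = 0.0106, with 1 array per genotype at 24 h) without both 24 h replicate 2 arrays and -0.01 without wild-type replicate 1 at 24 h. AT1G07650 gave 0.15 ± 0.2 at 12 h (adjusted p = 0.673) and -0.24 ± 0.2 at 24 h (adjusted p = 0.394), neither of them called, where 21.1% and 28.9% of probe sets were called in either direction. Between 12 h and 24 h AT1G07650 differed by -0.39 ± 0.2 (limma, adjusted p = 0.253), where 9.59% were called, and by -0.51 without both 24 h replicate 2 arrays (adjusted p = 0.043, again with 1 array per genotype at 24 h). The mean of the leaf markers also moved with time, from 12.05 to 12.26 on the 0 h arrays and 11.5 to 11.64 at 12 h to 10.49 to 11.28 at 24 h, while 0 of the 3 were called between genotypes at any time. Averaged over genotypes, 1 of 3 leaf markers and 1 of 6 root markers were called lower at 12 h than at 0 h, where 12.1% of all probe sets were. At 24 h against 0 h 2 of 3 leaf markers and 3 of 6 root markers were called lower, and 1 of 4 stomatal markers, SPCH, higher. In that contrast 28.9% of probe sets were called in either direction and 11.6% higher. The part of these shifts in the time differences was not tested. These averages join responses that differ between the genotypes, so the lack of a call for AT1G07650 does not show constant levels in either. The 12 h call of AT1G53430 joins 2.66 in wild type with 0.02 in rcf1-1, so it does not show a response in the mutant. Its call between 12 h and 24 h joins -1.75 in wild type with -0.43 in rcf1-1.

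The other genes of LRR-VIII-2 were read from a list of 15, of which 7 had a probe set, the pair described here included. AT1G53420 and AT1G53440 lie on either side of AT1G53430 in the gene table. AT1G53420 read 2.15 to 2.44 on the 12 arrays, at percentiles of 0.919 to 7.37, the low end of every array. AT1G53440 was higher in the chilled wild type too, but its course differed, with 4.63 and 4.02 at 0 h, 5.19 and 5.29 at 12 h and 5.64 and 6.2 at 24 h. In rcf1-1 it stayed between 4.37 and 4.98 on all 6 arrays. Wild type at 24 h lay above every other array of AT1G53440, whereas AT1G53430 had its highest wild-type values at 12 h.

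None of the 5 other measured genes was called between genotypes by limma at 0 h, where 0.11% of all probe sets were called, or at 12 h, where 1.35% were. These shares depended strongly on the setting. The main fit called 25 probe sets at 0 h and 307 at 12 h. Array weights called 995 and 2982, a term for both 24 h replicate 2 arrays 691 and 2196, and the compared arrays alone 331 and 3874. Under all 8 alternative settings none of these other LRR-VIII-2 genes was called at either time. In the main fit 0 of the 5 had an unadjusted p under 0.05 at either time. Their differences at 12 h ran from -0.58 to 0.06 with a median of -0.03, beside a median of -0.01 over all probe sets. At 24 h AT1G53440 was called lower in rcf1-1, at -1.12 ± 0.3 (limma, adjusted p = 0.0467), where 7.5% of probe sets were called in all and 4.19% lower. AT1G16670 was called higher, at 1.6 ± 0.37 (limma, adjusted p = 0.0255), where 3.31% were. AT1G16670 read 4.53 and 3.4 in wild type and 5.99 and 5.15 in rcf1-1 at 24 h, so the groups did not overlap. The call of AT1G53440 was lost in 10 of the 12 fits that leave out 1 array, with adjusted p up to 0.148, and was kept only without wild-type replicate 1 or rcf1-1 replicate 2 at 24 h. That of AT1G16670 was lost in 6, which leave out either wild-type array at 12 h, either rcf1-1 array at 0 h, wild-type replicate 2 at 24 h or rcf1-1 replicate 1 at 24 h (adjusted p up to 0.0975). Array weights also ended both calls (adjusted p = 0.518 and 0.167), as did a fit to only the compared arrays (0.588 and 0.533), and quantile normalization run again ended that of AT1G53440 (0.0839). The weight was 0.3 for both replicates at 24 h in each genotype, so that setting did not set replicate 2 apart. Without both 24 h replicate 2 arrays, with 1 array against 1, the differences were -1.02 and 1.46.

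**Figure D3:**
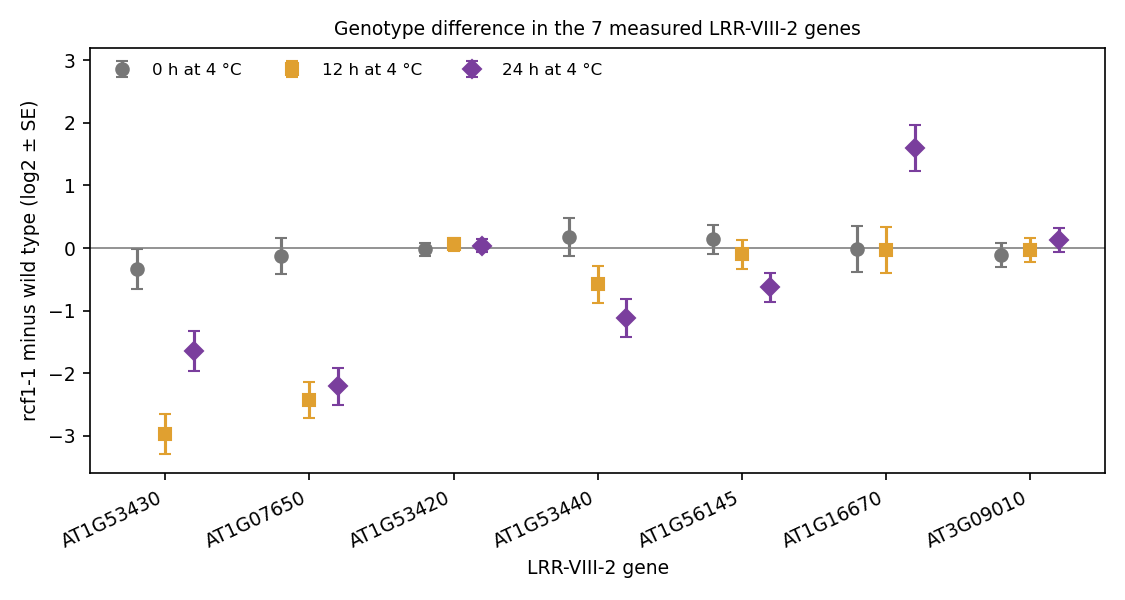
rcf1-1 minus wild type (vertical axis, log2 ± limma's SE, n = 2 arrays per group) for the 7 measured LRR-VIII-2 genes (horizontal axis) at 0 h (grey circles), 12 h (orange squares) and 24 h (purple diamonds). At 12 h AT1G53430 and AT1G07650 are at -2.97 and -2.43, while the 5 others lie between -0.58 and 0.06. At 24 h AT1G53440 is at -1.12 and AT1G16670 at 1.6.

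In the cold response averaged over genotypes, AT1G16670 was the called LRR-VIII-2 gene at 12 h besides AT1G53430. It fell by 1.12 ± 0.26 (limma, adjusted p = 0.0104), where 12.1% of probe sets were called lower. Its response was -1.11 in wild type and -1.13 in rcf1-1, and the averaged call was lost without rcf1-1 replicate 1 at 12 h (adjusted p = 0.0523). AT1G53440 rose at 24 h by 0.95 ± 0.21 (limma, adjusted p = 0.00675), where 11.6% of probe sets were called higher, and this call was kept in all 12 fits that leave out 1 array. Without both 24 h replicate 2 arrays its value was 0.72. AT1G56145 and AT3G09010 were not called in any of these contrasts. AT1G56145 read 3.23 to 4.29 and AT3G09010 3.52 to 4.17 over the 12 arrays. The difference between the genotypes' cold responses could be tested for the 5 genes that the choice did not touch. It was largest at 24 h for AT1G16670, at 1.61 ± 0.52, and for AT1G53440, at -1.3 ± 0.42, with an adjusted p of 0.201 for each (limma), in a contrast that called 1.1% of probe sets. Without both 24 h replicate 2 arrays these values were 1.47 and -1.19.

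**Figure D4:**
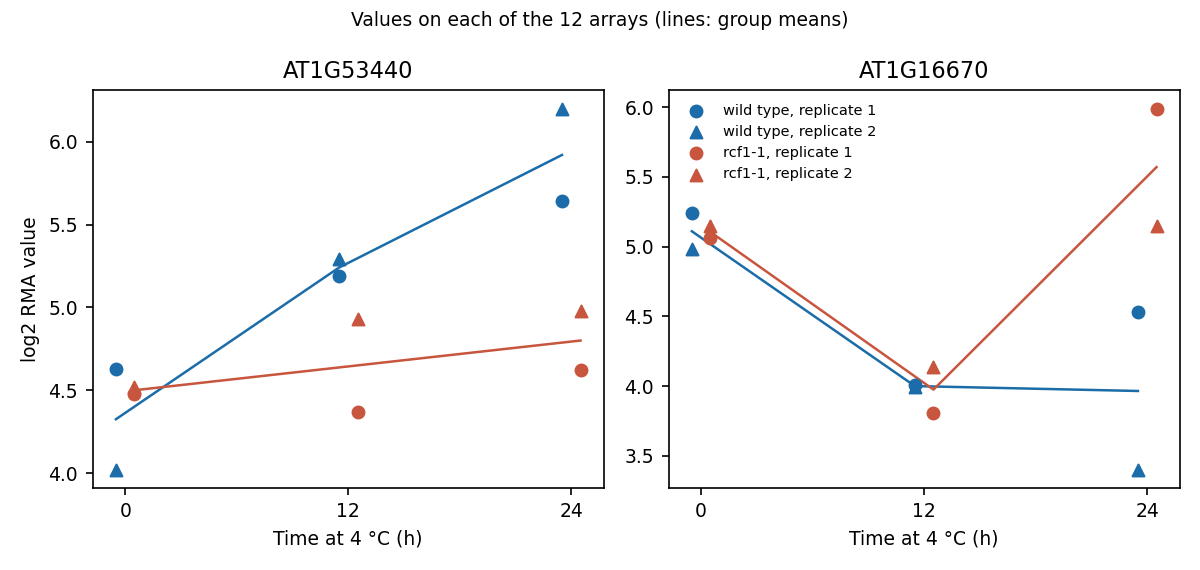
log2 RMA values (vertical axis) of AT1G53440, the chromosomal neighbour of AT1G53430, and of AT1G16670 on each of the 12 arrays against time at 4 °C (horizontal axis, h), with wild type in blue, rcf1-1 in red, circles for replicate 1, triangles for replicate 2 and lines through group means. AT1G53440 is at 5.64 and 6.2 in wild type at 24 h but at 4.98 or less in rcf1-1, and AT1G16670 is highest in rcf1-1 at 24 h.

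Across the 12 arrays AT1G53430 and AT1G07650 correlated at r = 0.85, and at 0.86 over the 10 arrays without the 24 h replicate 2 pair. These arrays share the genotypes and times by which the genes were chosen, so the correlation describes that choice and has no p. Among the 3965 other named probe sets whose group means spanned at least 1 log2 unit, AT1G07650 was at place 37 in likeness to AT1G53430, and AT1G53430 at place 40 in likeness to AT1G07650. Many transcripts thus followed each of them more closely than they followed each other.

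Over the 12 arrays the gene most like AT1G53430 was AT1G18360, at r = 0.96. Its group means were 5.68, 7.67 and 6.73 in wild type and 5.2, 5.67 and 5.15 in rcf1-1 at 0 h, 12 h and 24 h. Like AT1G53430 it peaked in wild type at 12 h, but unlike it the mutant mean was 0.47 higher at 12 h than at 0 h. APL4, a gene for a large subunit of ADP-glucose pyrophosphorylase in starch synthesis, followed at r = 0.93. AT1G07450, AT2G21380 and AT1G60160 each had r = 0.92. Over the 10 arrays without the 24 h replicate 2 pair the order changed, with AT1G07450 at place 3, AT1G18360 at 5, AT2G21380 at 8, APL4 at 16 and AT1G60160 at 20, at r of 0.93 to 0.97. For these 5 genes the wild-type difference at 12 h ran from 0.74 to 1.99, below the 2.66 of AT1G53430.

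AT1G07650 was most like AT1G51805 over the 12 arrays, at r = 0.95. AT1G51805 had group means of 7.59, 8.31 and 7.81 in wild type and 6.7, 6.44 and 6.34 in rcf1-1. Its genotype difference was present before the cold, at -0.89, where AT1G07650 had -0.13. AT5G63640 (r = 0.93), AT5G05820 (0.92), AT5G35560 (0.9) and AT1G07450 (0.9) came next, and AT1G07450 was the gene named for both. The first 4 of these 5 genes, AT1G51805 included, had mutant differences from 0 h to 12 h of -0.78 to -0.15, where AT1G07650 had -1. AT1G07450 differed from them with 0.07. Over 10 arrays, without the 24 h replicate 2 pair, AT5G35560 came to place 2, AT5G05820 to 5, AT1G51805 to 6, AT5G63640 to 8 and AT1G07450, at r = 0.89, to 36.

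**Figure D5:**
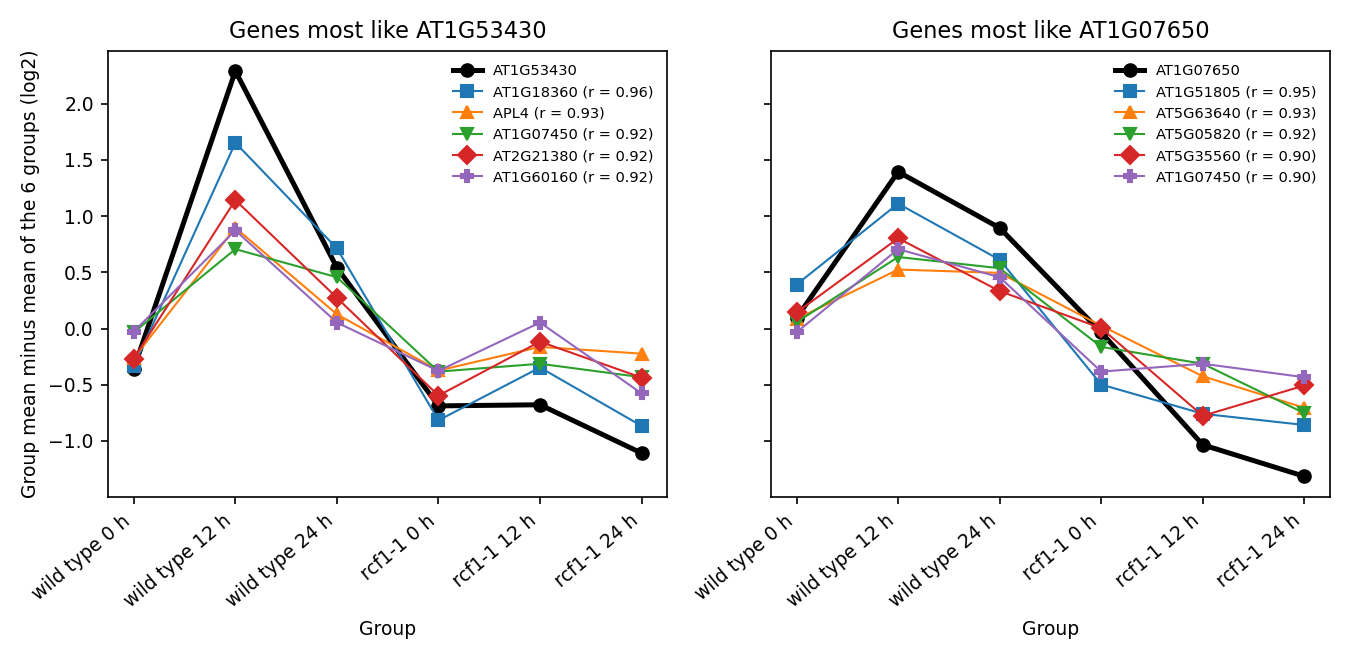
Group means minus the mean of the 6 groups (vertical axis, log2) across the genotype and time groups (horizontal axis) for AT1G53430 (left, black) and AT1G07650 (right, black) with the 5 genes of highest Pearson correlation over the 12 arrays, whose r stands in the legend. AT1G53430 and its 5 genes peak in wild type at 12 h, and AT1G07650 lies lower in chilled rcf1-1 than the genes most like it.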

How the data were processed

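The authors deposited log2 values, which the submitters' processing notes credit to RMA. Which program ran RMA, and over which arrays, was not given in the sources used here, and no detection calls were used. RNA was extracted with Trizol and labelled with biotin, per the labels' protocols. RMA quantile-normalizes arrays, so values are relative within an array.

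Of 22810 probe sets, 64 controls were left out and 22746 were tested, of which 13513 have 1 gene in the platform annotation, 503 several and 8730 none. limma 3.58.1 in R 4.3.3 fitted 1 mean for each of the 6 groups to all 12 arrays, with trended eBayes (prior degrees of freedom 4.7) and Benjamini-Hochberg adjustment within each contrast. Genotype differences and the cold responses of single genotypes have no test for the members, since the rule used those arrays. The averaged cold response comes from the same arrays but does not use their genotype difference. With 2 arrays a group, p-values measure the spread between replicates pooled over all 6 groups. The 24 h replicate 2 arrays therefore enter the spread used at 0 h and 12 h too. The text names both members, all measured LRR-VIII-2 genes, up to 3 called genes of each other receptor list per contrast with the largest differences, and the 5 genes most correlated with each member among those whose group means span at least 1 log2 unit. The members and lists were chosen with earlier results of these data known. The code was tested on simulated data. Alternatives were a fit without trend, a filter at the 30th percentile of mean signal, a replicate block, quantile normalization run a second time, array weights, the compared arrays alone, both 24 h replicate 2 arrays left out or given a term, and each array left out in turn. The array weights were equal for both replicates of each group, so they cannot single out the 24 h replicate 2 arrays. Promoter sequence was not analysed here.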

Additional observations from a re-analysis of the deposited data

Results flagged for a closer look

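In 3 cases both chilled arrays lay beyond both 0 h arrays of their genotype, in opposite directions in wild type and rcf1-1. For AT1G53430 at 24 h the cold response was 0.9 in wild type and -0.42 in rcf1-1, so that the response of rcf1-1 minus that of wild type was -1.32 (log2, n = 2 arrays per group). The AT1G07650 responses at 12 h were 1.3 and -1, a difference of -2.3, and those at 24 h were 0.8 and -1.28, a difference of -2.08. These differences between the genotypes were not tested, because the genes were chosen for their genotype difference. Without both 24 h replicate 2 arrays the 24 h values were -1.67 and -2.66. For AT1G53430 the wild-type response at 24 h was 1.41 without replicate 2 and 0.39 without replicate 1.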

How the results depend on the processing

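For AT1G53430 the averaged 12 h response held under all 8 alternative settings (1.34 to 1.39, adjusted p 7.02e-07 to 0.00154) and all 12 fits without 1 array (1.25 to 1.43). Its 12 h genotype difference ran from -3.15 to -2.79 over those 12 fits, and that of AT1G07650 from -2.55 to -2.31. With both 24 h replicate 2 arrays left out, which leaves 1 array per genotype at 24 h, the 24 h genotype differences were -2 for AT1G53430 and -2.79 for AT1G07650, and leaving out 1 array gave -2.16 to -1.14 and -2.62 to -1.8. The averaged response of AT1G53430 at 24 h against 0 h was 0.58 with those arrays left out or given a term of their own (adjusted p = 0.0106 and 0.026, now past the threshold), and -0.01 to 0.5 without 1 array, with the negative value without wild-type replicate 1 at 24 h. Between 12 h and 24 h it was -1.09 with the compared arrays alone (adjusted p = 0.0571) and -1.35 to -0.84 without 1 array. For AT1G07650 that contrast was -0.51 (adjusted p = 0.043) without both 24 h replicate 2 arrays and -0.6 to -0.19 without 1 array. Of the 5 other LRR-VIII-2 genes, 2 were called between genotypes at 24 h, against 1 after a second quantile normalization, 0 with array weights, 0 with the compared arrays alone, 3 where those 24 h arrays had their own term (AT1G56145 added at -0.63, adjusted p = 0.0187) and 0 to 3 without 1 array. In the averaged 12 h response 1 was called, against 3 with array weights, with the compared arrays alone and with both 24 h replicate 2 arrays left out or given a term, and 0 to 2 without 1 array. In the averaged 24 h response 1 was called, against 2 without both of those arrays and 1 to 2 without 1 array. The causes of these changes were not tested. Replicate differences correlated over 0.1 in 1 of 15 pairs of groups (-0.1 to 0.69), that of both genotypes at 24 h, where replicate 2 stood apart in both. Low correlations in the other pairs do not show that their arrays were unpaired. The main fit used no pairing. In this balanced design a replicate block cannot move a difference and changes only its error. With the block the averaged 12 h response of AT1G53430, 1.34, had an adjusted p of 0.000759, and no call of the members and no count of the other LRR-VIII-2 genes changed. The number of arrays limits precision.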

Other observations

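Other receptor kinases were read from lists of immune receptors and their partners (6 of 25 measured), receptors in growth and development (8 of 26) and malectin-domain receptors outside LRR-VIII-2 (9 of 19). The lists do not cover all receptor kinases, so their counts hold for the listed genes only. AT1G51805, named above for its likeness to AT1G07650, is in none of them. Its rcf1-1 minus wild type differences were -0.89, -1.87 and -1.47 at 0 h, 12 h and 24 h. In the main fit limma called 0 of the listed genes between genotypes at each time. That fit called 0.11%, 1.35% and 7.5% of all probe sets at 0 h, 12 h and 24 h, shares that depended on the setting. At an unadjusted p under 0.05 the counts at these times were 0, 2 and 2 for the immune list, 0, 0 and 2 for the growth list, and 0, 1 and 0 for the malectin list. Their median differences ran from -0.12 to 0.2, but single genes differed by more. At 24 h 6 of 6 immune genes were higher in rcf1-1 (0.02 to 1.25), while 6 of 8 growth genes and 4 of 9 malectin-domain genes were lower. The largest were BIK1 at 1.25 ± 0.38 at 24 h (limma, adjusted p = 0.0751) and EFR at 1.01 ± 0.27 at 12 h (adjusted p = 0.121).

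Averaged over genotypes, several of these genes responded to the cold. Of the 6 immune genes, 2 were called higher at 12 h and 0 lower, where 9.04% of probe sets were called higher and 12.1% lower. BIK1, a cytoplasmic kinase downstream of immune receptors, rose by 1.28 ± 0.27 (limma, adjusted p = 0.00555), and EFR, the receptor for bacterial EF-Tu, by 0.87 ± 0.19 (adjusted p = 0.00774). The averaged rise of EFR lay mostly in rcf1-1. In wild type EFR read 3.25 and 3.2 at 0 h, 3.46 and 3.49 at 12 h and 3.29 and 3.6 at 24 h. In rcf1-1 it read 3.07 and 2.91, then 4.45 and 4.52, then 4.79 and 3.83. Of the 8 growth genes 2 were called lower, PSY1R, the receptor kinase named for the peptide PSY1, at -1.99 ± 0.24 (adjusted p = 0.000144) and AT1G27190 at -0.8 ± 0.16 (adjusted p = 0.00474). Of the 9 malectin-domain genes 1 was called higher and 3 lower. FER, which encodes the receptor FERONIA, rose by 1.23 ± 0.2 (limma, adjusted p = 0.00134), and THE1, which encodes the wall-sensing receptor THESEUS1, fell by 1.31 ± 0.19 (adjusted p = 0.000488). These 6 calls held in each of the 12 fits without 1 array. AT2G39360, at -0.78 ± 0.23 (limma, adjusted p = 0.0316), was called in 4 of them, and so was the remaining gene called lower, AT2G23200, at -0.46 ± 0.14 (adjusted p = 0.0436), which is named after its values were seen. Both were also lost after a second quantile normalization (adjusted p = 0.0708 and 0.0535). At 24 h against 0 h 28.9% of probe sets were called in either direction and 11.6% higher. In that contrast 3 of 6 immune genes were called higher, 3 of 8 growth genes lower, and of 9 malectin-domain genes 1 higher and 1 lower. AT4G08850 rose by 0.96 ± 0.22 (limma, adjusted p = 0.00752), BIK1 by 0.95 (0.0222) and EFR by 0.77 (0.0127). PSY1R was at -1.75 (limma, adjusted p = 0.000343), AT1G27190 at -1.07 (0.000667) and AT5G62710 at -0.64 (0.034). FER was at 0.79 (limma, adjusted p = 0.0148) and AT5G59700 at -0.69 (0.00588). Leaving out 1 array ended the 24 h calls of BIK1 (without any 0 h array), EFR (without rcf1-1 replicate 2 at 0 h), FER (without replicate 1 at 0 h of either genotype) and, in 10 of 12 fits, AT5G62710. The call of AT5G59700 was lost with array weights (adjusted p = 0.0526), that of BIK1 with the compared arrays alone (0.0698), and that of AT5G62710 with the compared arrays alone and with both 24 h replicate 2 arrays given a term or left out, where it was at -0.28 (0.145). Without those arrays the other 24 h values were 0.73 for AT4G08850, 1.47 for BIK1, 0.94 for EFR, -1.32 for PSY1R, -1.06 for AT1G27190, 1.02 for FER and -0.69 for AT5G59700. Between 12 h and 24 h 9.59% of probe sets were called in either direction and 5.68% lower. In that contrast AT4G08850 rose by 1.52 ± 0.22 (limma, adjusted p = 0.00174) and THE1 by 1.61 ± 0.19 (adjusted p = 0.000499), and 0 of the growth list were called. Without both 24 h replicate 2 arrays these values were 1.3 and 1.55.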
